A study of Mus musculus with 8 samples.

Results

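The genes described here encode the m6A writer complex, the nuclear enzyme that methylates adenosine in messenger RNA. The 8 genes Mettl3, Mettl14, Wtap, Virma, Zc3h13, Cbll1, Rbm15 and Rbm15b were chosen by name from the 35541 loci of the 8 h table and the matching tables at 1 and 24 h. At 1 h there were 6 of them with a separate locus, and at 8 and 24 h there were 5. Rbm15 was merged with Slc16a4, and Rbm15b with Manf, in all 3 tables. Virma was merged with Fsbp and Rad54b at 8 and 24 h only. Values of merged loci are given as such and were not counted as values of the gene.

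In this complex METTL3 is the catalytic subunit and METTL14 is its partner, which helps to hold the RNA. WTAP keeps the pair in nuclear speckles and joins it to the regulatory subunits VIRMA, ZC3H13, HAKAI (the product of Cbll1), RBM15 and RBM15B. Methylated transcripts are commonly shorter-lived, because reader proteins recruit decay factors, and the mark is found mainly in long exons and around stop codons, away from exon junctions. In neural and retinal progenitors the mark is known for its part in the turnover of developmental transcripts.

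The samples were retinal organoids made from mouse cells of the line Rx:GFP FKBP12F36V-HA KI, at day 6 of differentiation. In every group, the 0 h controls included, both endogenous Mettl3 alleles carry FKBP12F36V-HA at the C-terminal end. This tag is a degron that dTAG-13 directs to a ubiquitin ligase, so that METTL3 protein is removed. There were 4 groups of 2 samples: untreated (0 h), and 1, 8 and 24 h of dTAG-13 at 125 nM. The labels do not say whether the controls received solvent, whether the line is a single clone or whether the replicates were separate cultures. Untagged cells given dTAG-13 were not analysed here, so an effect of the compound cannot be told apart from loss of METTL3.

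The tables hold 1 value for each condition, already combined over both replicates, so no spread between samples could be computed and no p-value is given. The error printed with each FPKM (fragments per kilobase of transcript, scaled to the fragments of the library) is the interval the authors deposited. A locus was called, and is said to have risen or fallen, when it had at least 1 FPKM in 1 condition, its FPKM differed by at least 1.5-fold and the 2 intervals did not overlap. Estimated counts per condition totalled 31361518 at the lowest and 32562075 at the highest. Of the eye field genes used as markers, Lhx2, Pax6, Rax and Six6 lay between 45.1 and 231 FPKM in all tables. Of these, Rax and Lhx2 were called higher at 24 h. Pluripotency genes were still present, with Pou5f1 at 25.6 to 34.8 FPKM. Of the pigment epithelium markers Tyr was at most 0.0213 FPKM, while Mitf stood between 19.2 and 21.4 and Pmel at 28.9 untreated and 60.3 after 24 h, where it was called by the rule on estimated counts and not by FPKM. Of the mesoderm and endoderm markers T was at most 0.154 FPKM, Gata4 lay between 1.49 and 2.10, and Sox17 stood at 1.06 untreated and 1.88 after 24 h, again called by counts only. The neuronal marker Dcx was at most 0.263 FPKM, and it was the single neuronal marker with a row of its own. The part of these markers in the results on the writer genes was not tested. In bulk RNA of this kind, a change in the makeup of the organoid and a change in RNA per cell cannot be told apart.

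Before treatment Wtap had the highest FPKM of the writer genes. In the 0 h column of the 8 h table it stood at 56.9 FPKM (interval 45.4 to 68.4), higher than 86.6% of the tested loci. Mettl14 followed at 23.3 (18.7 to 28.0), Zc3h13 at 23.0 (18.2 to 27.7), Mettl3 at 19.4 (10.7 to 28.1) and Cbll1 at 13.4 (10.8 to 16.0). Virma, readable in the 1 h table only, stood at 19.6 (15.6 to 23.7) there. The interval of Wtap lay above all the others. Mettl14, Zc3h13, Mettl3 and Virma overlapped one another and are not ordered by these data. Cbll1 lay below Mettl14 and Zc3h13 without overlap, but overlapped the wide interval of Mettl3. In the 1 h table Cbll1 (10.4 to 16.1) also overlapped Virma.

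After dTAG-13 the writer genes with their own locus did not move together. Wtap and Cbll1 rose at 8 and 24 h, while Mettl3, Mettl14 and Zc3h13 were not called at any time, and none of the 6 genes was called at 1 h. Of all tested loci 0.402% were called at 1 h. At 8 h 2 of 5 writer genes were called, both higher, against 4.43% of loci called in either direction and 3.49% called higher. At 24 h it was again 2 of 5, both higher, against 5.48% and 3.83%. The median log2 ratio of the tested writer genes at the 3 times was 0.02, 0.24 and 0.22, beside 0.01, 0.01 and 0.02 over all tested loci. All 3 comparisons share the 0 h libraries.

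**Figure D1:**
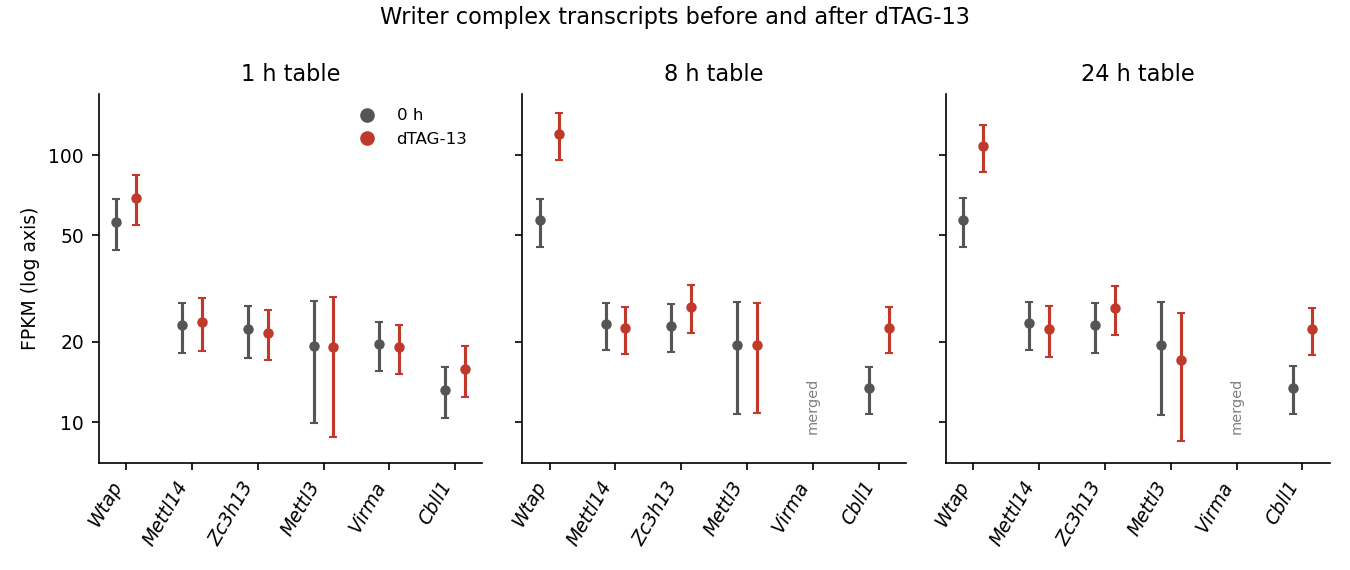
FPKM on a log axis for the writer genes with a locus of their own, in each of the 3 tables. Points are the deposited values pooled over 2 samples (gray 0 h, red dTAG-13) and bars the deposited intervals; the bars separate for Wtap and Cbll1 at 8 and 24 h, as in Wtap from 56.9 to 119 FPKM at 8 h.

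The catalytic pair was examined first. Mettl3 (chr14:52294841-52305128, GRCm38, minus strand) is the tagged gene, and its FPKM was 19.2 (9.92 to 28.5) untreated and 19.1 (8.82 to 29.4) after 1 h. For the 8 h comparison it was 19.4 (10.7 to 28.1) before and 19.4 (10.8 to 28.0) after, and for the 24 h comparison 19.4 (10.6 to 28.3) before and 17.0 (8.50 to 25.5) after. All treated values lay inside the untreated interval. The degron acts on protein, which was not measured, so these values do not check the depletion.

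Mettl3 was also the least precise of the writer genes with their own locus. In the 1 h table its untreated estimated count was 1053 with a deposited SD of 239, a coefficient of variation of 22.7%, against 10.1% to 10.6% for the other 5 genes. With intervals of that relative width a change of 2.87-fold would have been needed to separate them, compared with 1.53-fold to 1.56-fold for the others. By the rule on FPKM intervals, a smaller change of Mettl3 would therefore not have been called at 1 h. The same figure for Mettl3 was 2.63-fold in the 8 h table and 2.65-fold in the 24 h table. Its assembled locus spans 3 genes: the 3′ end of Mettl3 overlaps the end of Tox4 on the opposite strand, and Rab2b lies beyond Tox4. Tox4 stood at 24.8 FPKM (16.4 to 33.1) untreated and 24.1 (15.6 to 32.6) after 8 h, and Rab2b at 11.5 (5.71 to 17.2) and 9.90 (4.07 to 15.7). Neither neighbour was called at any time, and since the strandedness of counting is not given, reads in the shared stretch cannot be assigned.

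Mettl14 (chr3:123368297-123386108, minus strand) was not merged with a neighbour. Its FPKM was 23.0 (18.1 to 28.0) untreated and 23.8 (18.4 to 29.1) after 1 h. It was 23.3 (18.7 to 28.0) before and 22.5 (18.0 to 27.1) after 8 h, and 23.4 (18.6 to 28.2) before and 22.4 (17.5 to 27.3) after 24 h. The log2 ratios were 0.05, -0.05 and -0.06. By estimated count the log2 ratio at 24 h was -0.10 ± 0.20 (SE from the deposited variances), so 0 lay within 1 SE.

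Wtap (chr17:12966796-12994169, minus strand), the adaptor of the complex, had the largest ratio of the genes with their own locus. Its FPKM was 56.2 (43.9 to 68.4) untreated and 69.3 (54.7 to 83.8) after 1 h, with overlapping intervals. After 8 h it had risen to 119 (95.8 to 143), against 56.9 (45.4 to 68.4) untreated, and its log2 ratio of 1.07 exceeded that of 98.3% of tested loci. After 24 h it stood at 108 (86.4 to 130), against 57.1 (45.3 to 68.8) untreated, and the log2 ratio was 0.92. Both treated intervals lay wholly above the untreated ones, and they overlapped each other, across tables that were normalized separately.

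The rise of Wtap was also present in estimated counts, though smaller. The count was 7251 after 8 h and 3773 untreated, with a log2 ratio of 0.94 ± 0.19 (SE). After 24 h it was 6465 against 3735, with a log2 ratio of 0.79 ± 0.20 (SE). The count obtained per unit of FPKM, which follows the mean length of the transcripts to which reads are assigned, changed by -8.49% at 8 h and -8.69% at 24 h. For Mettl3 it changed by -1.71% and -4.55%, and among Mettl14, Zc3h13 and Cbll1 the largest change was -2.43%, of Mettl14 at 24 h. The Wtap locus lists 5 transcription starts and no value for each, so which isoform moved was not tested.

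Cbll1 (chr12:31484829-31499616, minus strand) encodes HAKAI, a RING-type E3 ubiquitin ligase. Its FPKM was 13.2 (10.4 to 16.1) untreated and 15.8 (12.4 to 19.3) after 1 h, overlapping. After 8 h it had risen to 22.5 (18.1 to 27.0), against 13.4 (10.8 to 16.0) untreated, with a log2 ratio of 0.75. After 24 h it was 22.3 (17.8 to 26.8) against 13.4 (10.7 to 16.2), with a log2 ratio of 0.73. Counts gave almost the same ratios, 0.74 ± 0.20 (SE) and 0.72 ± 0.20. By the estimated count rule, with intervals of 2 SD in place of the deposited FPKM intervals, Wtap and Cbll1 were again the 2 of 5 writer genes called at 8 h, where 5.95% of loci were called. The same 2 were called at 24 h, where 7.48% of loci were.

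Zc3h13 (chr14:75284373-75344426, plus strand), a zinc finger protein that retains the complex in the nucleus, was not called at any time. It was 22.2 (17.4 to 27.1) untreated and 21.6 (17.0 to 26.2) after 1 h. It stood at 23.0 (18.2 to 27.7) before and 27.1 (21.5 to 32.6) after 8 h, and at 23.0 (18.2 to 27.9) before and 26.8 (21.2 to 32.3) after 24 h. The log2 ratios of 0.24 and 0.22 came with overlapping intervals, and the count ratio at 8 h was 0.24 ± 0.19 (SE). The assembled locus of Zc3h13 ran on to base 75400446, past the annotated end of the gene. It listed 2 transcription starts in the 1 h table and 3 in the others.

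These shifts changed the order of levels. Wtap was 2.93 times Mettl3 at 0 h in the 8 h table and 6.15 times Mettl3 at 8 h. Against Mettl14 it went from 2.44 to 5.30 times. Cbll1, the lowest of the 5 at 0 h, stood at 22.5 FPKM at 8 h, level with Mettl14 at 22.5. Its interval no longer lay below those of Mettl14 and Zc3h13. These are levels of RNA, not of subunits.

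Merging of loci limits what the tables show for the remaining subunits. Virma (chr4:11485958-11550684, plus strand), the scaffold of the regulatory part, was separate from its neighbours at 1 h only, with 19.6 FPKM (15.6 to 23.7) untreated and 19.1 (15.2 to 23.0) treated. Its counts were 3893 and 3911. The counts of Virma and of the separate locus of Fsbp and Rad54b summed to 5887 at 0 h, and the merged locus held 5976 at 0 h in the 8 h table, 1.51% more. Virma made up 66.1% of that sum.

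The merged locus of Virma, Fsbp and Rad54b was not called. It stood at 37.6 FPKM (26.5 to 48.7) before and 47.5 (27.8 to 67.2) after 8 h, and at 37.7 (26.3 to 49.2) before and 48.4 (29.3 to 67.4) after 24 h. Its counts were 7885 after 8 h and 5976 untreated, with a log2 ratio of 0.40 ± 0.19 (SE), and 8235 after 24 h and 5914 untreated, with 0.48 ± 0.20 (SE). How much of this belongs to Virma cannot be read from the tables. Rad54b is a DNA repair ATPase.

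Rbm15 (chr3:107325421-107333673, minus strand) and Rbm15b (chr9:106880918-106887428, minus strand) encode related RNA-binding proteins that bring the complex to its targets. The locus named for Rbm15 and Slc16a4, a transporter gene, was called higher at 8 and 24 h. Its FPKM was 9.13 (6.91 to 11.3) untreated and 13.8 (9.35 to 18.3) after 1 h. After 8 h it was 22.1 (17.4 to 26.8) against 9.46 (7.35 to 11.6), with a log2 ratio of 1.22. After 24 h it was 18.1 (14.0 to 22.2) against 9.49 (7.34 to 11.6), with a log2 ratio of 0.93. Counted as a writer gene, it would bring the total to 3 called at both times.

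Estimated counts gave a smaller change for that locus. They were 3863 and 3963 at 1 h, a log2 ratio of 0.04 ± 0.21 (SE), where FPKM gave 0.59. After 8 h they were 5854 against 3922, a 1.49-fold difference just under the 1.5-fold limit. After 24 h they were 5127 against 3882, with a log2 ratio of 0.40 ± 0.20 (SE). By the count rule the locus was therefore not called. Its count per unit of FPKM changed by -32.3% at 1 h, -36.2% at 8 h and -30.8% at 24 h. Whether reads moved between transcripts of the 2 genes was not tested. A further row named Slc16a4 alone held 6.00 counts (deposited SD 14.5) untreated and 26.2 (SD 37.2) after 8 h, a difference within these SDs.

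Rbm15b could not be separated from Manf, which encodes a secreted stress-response factor. Their locus was not called, at 371 FPKM (229.9 to 511) before and 373 (224 to 521) after 8 h, and at 372 (227 to 517) before and 311 (170 to 451) after 24 h. Its counts had log2 ratios of 0.30 ± 0.23 (SE) and 0.12 ± 0.23 where FPKM gave 0.01 and -0.26, so the direction at 24 h differs between the 2 scales. Rbm15b lies inside the annotated span of Manf, and the assembled locus also covers Dcaf1 and Dock3.

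**Figure D2:**
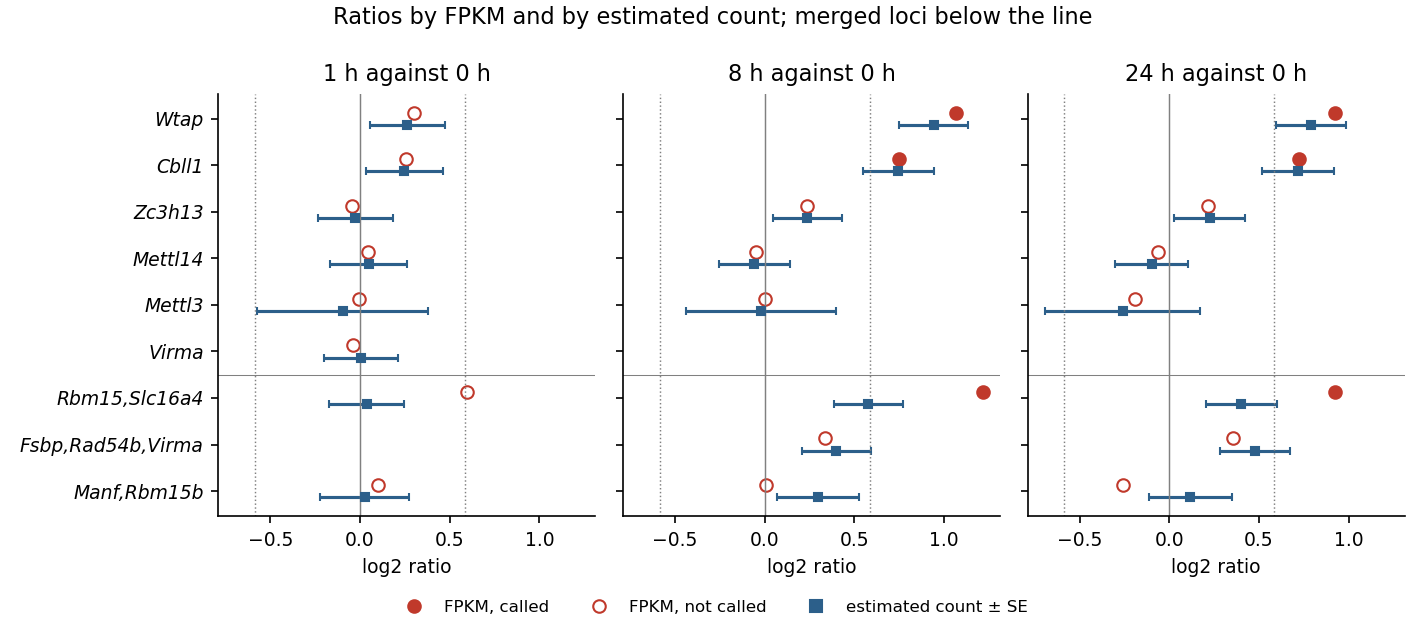
The log2 ratio to 0 h of each writer gene (above the line) and merged locus (below it), by FPKM (circles, filled where called) and by estimated count (squares with 1 SE from the deposited variances); dotted lines mark 1.5-fold. The circle and square lie close for Cbll1 (0.75 and 0.74 at 8 h) and apart for the Rbm15, Slc16a4 locus (1.22 and 0.58).

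**Figure D3:**
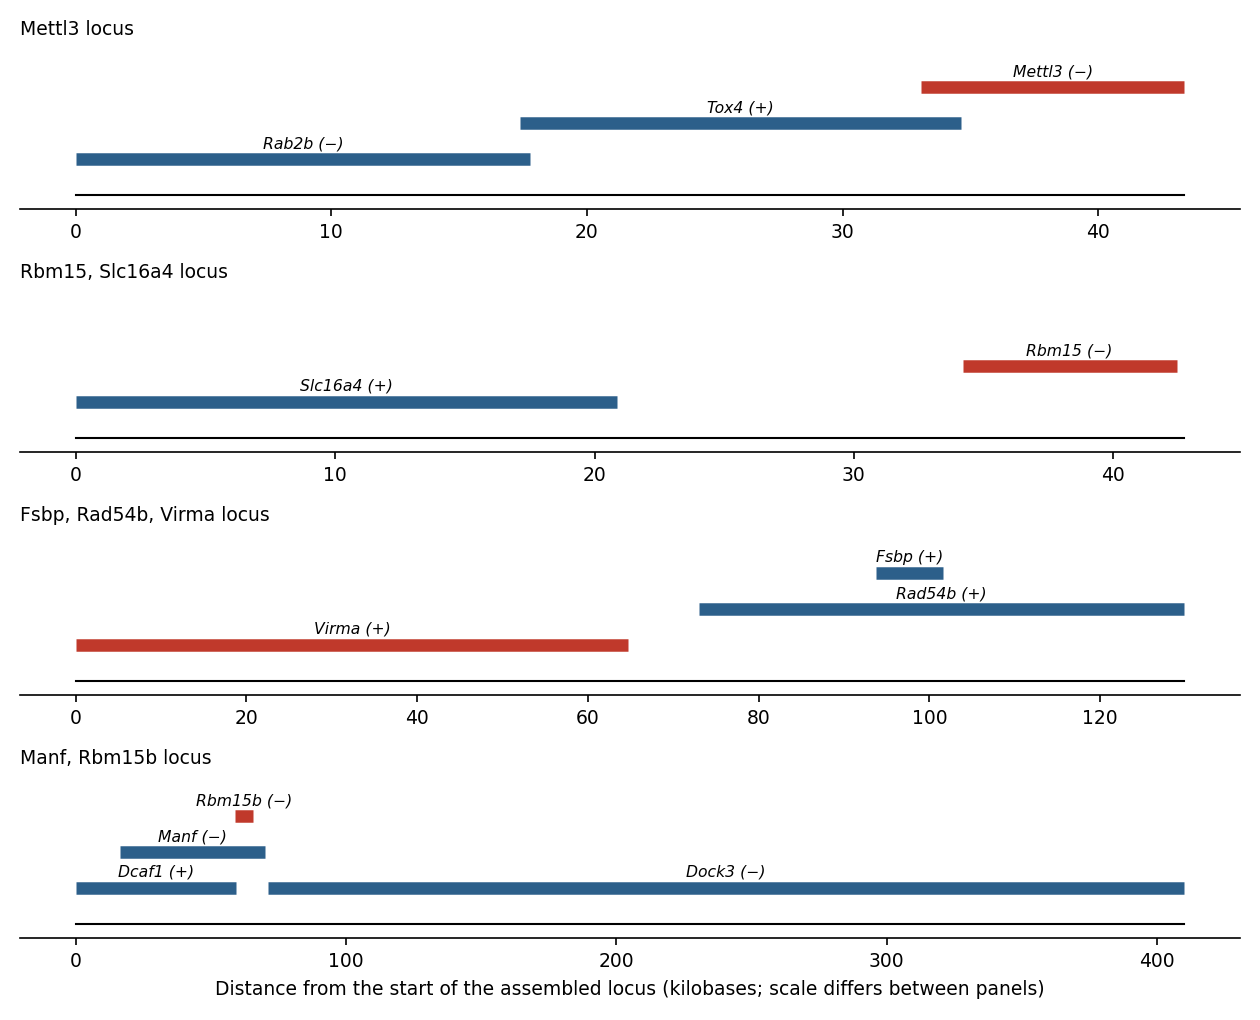
Protein-coding genes inside the assembled loci of Mettl3, Rbm15, Virma and Rbm15b, as distance in kilobases from the start of the locus, with writer genes in red, other genes in blue and the strand in brackets. Mettl3 overlaps the end of Tox4, and Rbm15b lies within the span of Manf.

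The writer genes differ in exon structure, a property that did not enter their choice. The representative transcript of Mettl3 has 11 exons, that of Mettl14 11, Wtap 8, Virma 24, Zc3h13 19, Cbll1 6, Rbm15 2 and Rbm15b 1. All are annotated transcripts, so that of Mettl3 lacks the tag. Junction density, the number of junctions between coding exons per kilobase of coding sequence, was 7.31 for Mettl14, 5.75 for Mettl3 and 5.05 for Wtap. It was 4.23 for Virma, 3.39 for Cbll1, 3.28 for Zc3h13, 0.35 for Rbm15 and 0 for Rbm15b. The median over 10945 tested protein-coding genes with a unique name was 6.16, so 7 of the 8 genes lay below it.

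Median ratios at 8 h were lower in groups of genes with more junctions per kilobase, and some writer genes lay near the genes of like density while others did not. With the tested genes split into 10 equal groups by density, Mettl14 fell in the seventh group, whose median log2 ratio at 8 h was -0.08, beside -0.05 for Mettl14 itself. Mettl3 fell in the fifth, with a median of 0.01 beside its own 0.00. Zc3h13 and Cbll1 fell in the third, with a median of 0.19, beside 0.24 for Zc3h13 and 0.75 for Cbll1. Wtap fell in the fourth, with a median of 0.08 beside its own 1.07. Rbm15 and Rbm15b fell in the first, with a median of 0.41. This is a description with no test, since genes are not replicates.

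**Figure D4:**
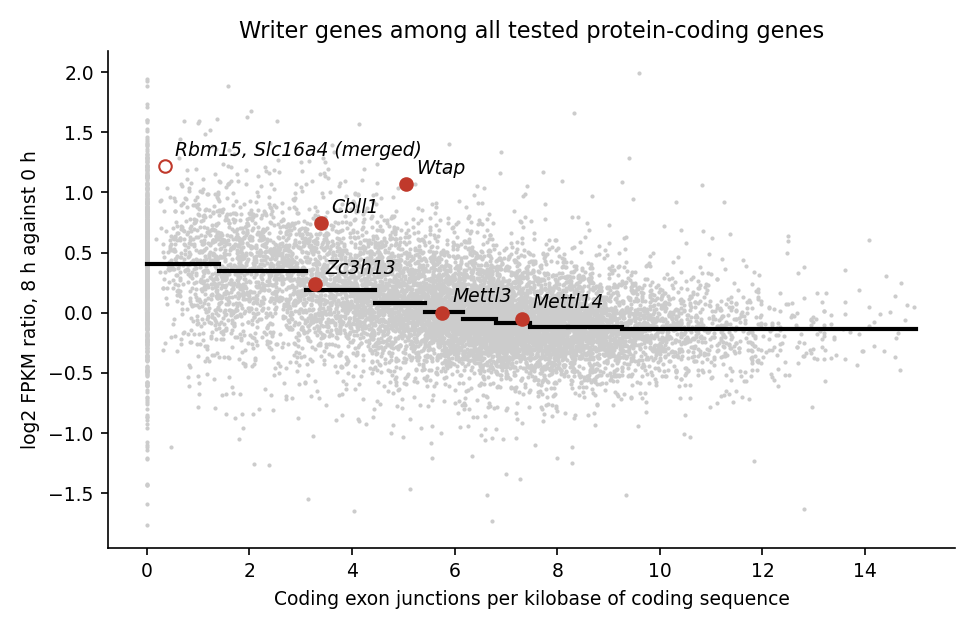
Junction density against the log2 FPKM ratio at 8 h for 10914 tested protein-coding genes (gray; 31 more lie outside the axes), with the median of each of 10 equal groups by density (black lines) and the writer genes in red, the merged Rbm15, Slc16a4 locus as an open circle. Mettl3, Mettl14 and Zc3h13 sit near the line of their group, and Wtap at 1.07 and Cbll1 at 0.75 above it.

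The sequence GGACT is the most common form of the motif that the complex methylates. It was counted in the sense strand of the representative transcripts, and a match is only a match of letters, since methylation was not measured here. The transcript used for Mettl3 is the annotated one, without the tag that these cells carry. Sequence added with the tag was not searched. Wtap held 5 matches, 2.43 per kilobase, a density above that of 94.5% of tested genes. Mettl3, which was not called, held 4, at 1.98 per kilobase, above 88.2% of tested genes. Cbll1, which rose, held 5, at 1.28 per kilobase, above 63.8%. Mettl14 held 3, Virma 7, Zc3h13 7, Rbm15 2 and Rbm15b 6. They differed in where the matches lay relative to exon junctions. With 100 bases as the limit, a value set after the distances had been seen, all 5 matches of Wtap lay farther than that from any junction, and 4 of these were in its last exon. In Mettl3 only 1 of 4 did. It was 2 of 3 in Mettl14, 2 of 5 in Cbll1, 2 of 7 in Virma and 2 of 7 in Zc3h13, where a further match lay at 99 bases. Both matches of Rbm15 lay beyond the limit, and the 6 of Rbm15b lie in a transcript with no junction.

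The matches of Wtap, which had the largest ratio at 8 h among genes with their own locus, and of Mettl3, which was not called, are shown with 12 bases on each side, 5′ to 3′, with the motif in capitals. Those of Wtap are in order along the transcript; the first is in the 5′ UTR, the next 2 are coding and the last 2 are in the 3′ UTR.
Wtap, chr17:12992451-12992455, minus strand, exon 1: gcgggcttccgcGGACTgtctccgtgcgg
Wtap, chr17:12967897-12967901, minus strand, exon 8: caagtaccagcaGGACTacatcttctgaa
Wtap, chr17:12967500-12967504, minus strand, exon 8: tcagaatggcttGGACTcaaatgtaaatg
Wtap, chr17:12967056-12967060, minus strand, exon 8: gatgtgggtttaGGACTgccaggtttgcc
Wtap, chr17:12967009-12967013, minus strand, exon 8: cactaaaaagttGGACTtggagtcctata
The nearest junction to these 5 matches is 145, 152, 549, 993 and 1040 bases away. Those of Mettl3 are coding but for the last, which is in the 3′ UTR.
Mettl3, chr14:52304939-52304943, minus strand, exon 1: taagaaacagctGGACTcgcttcgcgaga
Mettl3, chr14:52304900-52304904, minus strand, exon 1: gcgacggaagcaGGACTctgggcacttgg
Mettl3, chr14:52296536-52296540, minus strand, exon 9: caaccagggcctGGACTgcgatgtgattg
Mettl3, chr14:52294918-52294922, minus strand, exon 11: cacaccttaagaGGACTgtttacgcaata
Here the nearest junction, in the annotated transcript without the tag, is 54, 15, 23 and 173 bases away.

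Cbll1, the other gene that rose, had its matches split between short coding exons and a last exon of 3379 bases, 86.6% of its transcript. The 3 coding matches lie 52, 43 and 28 bases from a junction. The 2 in the 3′ UTR lie 1819 and 2799 bases from one.
Cbll1, chr12:31486493-31486497, minus strand, exon 6: cattattttataGGACTgtttaaagttgt
Cbll1, chr12:31485513-31485517, minus strand, exon 6: ctgtaggtacttGGACTggtgcaaacttg
Over the 10945 tested genes, the 2695 with no match at 100 bases or more from a junction had a median log2 ratio of -0.10 at 8 h and -0.10 at 24 h. The 1588 genes with at least 5 had medians of 0.18 and 0.16. Wtap is one of the latter, and Mettl3, with 1, is among 2606 genes with a median of -0.03 at 8 h. Cbll1, which rose, has 2, as do Mettl14 and Zc3h13, which were not called. The 1885 genes with 2 had a median of 0.03 at 8 h, so this number did not separate Cbll1 from the uncalled genes. How the number of such matches relates to exon length and junction density was not tested.

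**Figure D5:**
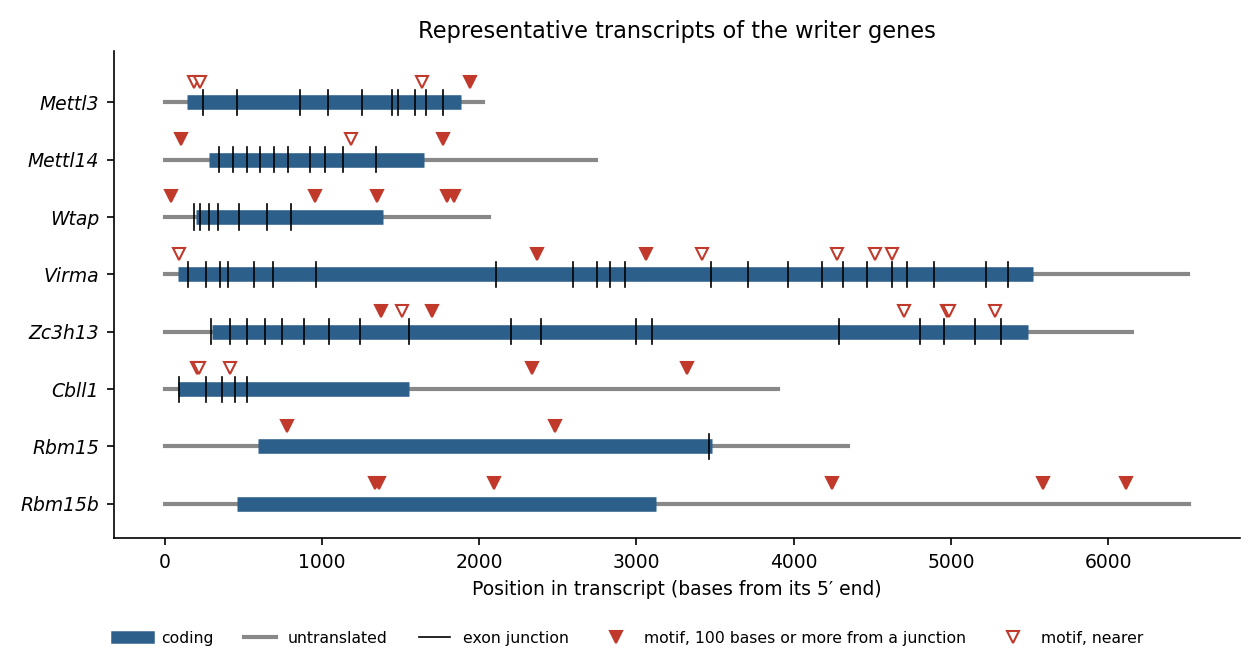
Representative transcripts of the 8 writer genes, to scale in bases, with coding sequence (blue), untranslated sequence (gray), exon junctions (black ticks) and GGACT matches (triangles, filled at 100 bases or more from a junction). All 5 triangles of Wtap are filled, 2 of 5 in Cbll1, 2 of 3 in Mettl14 and 1 of 4 in Mettl3, which is drawn without its tag. Virma and Zc3h13 each have 2 of 7 filled, and those of Rbm15 and Rbm15b are all filled. The limit of 100 bases was set after the distances had been seen.

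The promoters of Wtap and Cbll1 are shown because these genes rose together. Each run is the 250 bases before the RefSeq start on GRCm38.p6, with motif matches on either strand in capitals. The 6 motifs searched were an ETS core written CCGGAAG, the cyclic AMP response element half-site TGACG, the GC box GGGCGG, the box named CCAAT, the E-box CACGTG and an NRF1 core written GCGCATGCG.
Wtap, chr17:12992544-12992793, minus strand: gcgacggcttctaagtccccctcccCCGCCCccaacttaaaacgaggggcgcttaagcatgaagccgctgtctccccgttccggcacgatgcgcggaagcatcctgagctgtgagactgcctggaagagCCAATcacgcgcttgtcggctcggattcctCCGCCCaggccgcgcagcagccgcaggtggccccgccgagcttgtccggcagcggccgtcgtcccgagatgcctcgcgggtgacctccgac
Cbll1, chr12:31499617-31499866, minus strand: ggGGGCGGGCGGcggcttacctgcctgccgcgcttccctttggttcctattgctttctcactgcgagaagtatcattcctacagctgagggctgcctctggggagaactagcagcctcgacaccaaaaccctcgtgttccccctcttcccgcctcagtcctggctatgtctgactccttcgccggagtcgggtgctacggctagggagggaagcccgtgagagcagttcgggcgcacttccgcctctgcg
Both hold 2 GC boxes, which overlap in Cbll1, and Wtap also holds 1 CCAAT. A GC box was found in 33.0% of 27025 promoters of this length and CCAAT in 34.5%. The window of Mettl3 held neither. That of Zc3h13, which was not called, held 1 GC box, so the GC box was not limited to the genes that rose. The window of Rbm15b held 3 GC boxes, and that of Rbm15 held no GC box but 2 CCAAT. Both of these windows lie inside the representative transcript of their gene, since the RefSeq start is farther downstream. The window of Wtap lies outside its representative transcript but inside the annotated span of the gene, which runs to base 12994169.

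Genes with the most similar course were looked for by the distance over the 3 log2 ratios, among 8451 genes with at least 5 FPKM at 0 h. The nearest to Wtap (0.30, 1.07 and 0.92 at 1, 8 and 24 h) were Znhit2 (0.26, 1.14 and 0.95), Spin2c (0.38, 1.05 and 0.93) and Sap30bp (0.25, 1.06 and 0.84). Nearest to Cbll1 (0.26, 0.75 and 0.73) were Naa30, Kbtbd8 and Mb21d2, with ratios at 8 h of 0.74, 0.78 and 0.71. Nearest to Mettl3 were Mmachc, Cadm1 and Tldc1, with ratios at 24 h of -0.18, -0.18 and -0.22, beside -0.19 for Mettl3. The 3 ratios share the 0 h libraries, so this likeness is a description over 3 comparisons.

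Other genes of the m6A pathway were read from a list of 23. No gene of it was called among the 19 loci tested at 1 h, and 2 of 20 were called at both 8 and 24 h, all higher: the cytoplasmic readers Ythdf1 and Ythdf2. Of all tested loci 4.43% were called at 8 h and 5.48% at 24 h, and 3.49% and 3.83% were called higher. After 8 h Ythdf1 stood at 87.5 FPKM (70.9 to 104) against 44.8 (36.1 to 53.5) untreated, and Ythdf2 at 98.7 (74.5 to 123) against 42.6 (33.2 to 52.0). The third reader of that family, Ythdf3, stood at 46.3 (37.5 to 55.1) before and 60.9 (49.3 to 72.5) after 8 h, with overlapping intervals. The demethylases Fto and Alkbh5 had log2 ratios of 0.08 and 0.18 at 8 h and were not called.

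The list's median log2 ratio was 0.08 at 1 h, then -0.06 and -0.01 at the later times. Groups within the list differed. At 8 h all 5 tested readers and erasers had ratios above 0, with a median of 0.39. All 6 tested RNA-binding proteins tied to m6A had ratios below 0, with a median of -0.17. At 24 h these medians were 0.28 and -0.12. Of the 6 methyltransferases and cofactors outside the complex, 3 were above 0 at 8 h. None of the 6 tested methyltransferases and cofactors outside the complex was called at 8 or 24 h. Among them Mettl16, which methylates U6 small nuclear RNA, stood at 23.4 FPKM (14.6 to 32.3) before and 36.6 (21.1 to 52.2) after 24 h. Mat2a, which makes the methyl donor S-adenosylmethionine, stood at 123 (95.5 to 149.8) before and 174 (137 to 211) after 1 h, and at 124 (98.6 to 149.8) before and 110.0 (87.7 to 132) after 8 h. Its intervals overlapped at each time. Spen, a larger relative of Rbm15, stood at 7.77 (4.27 to 11.3) before and 6.16 (4.65 to 7.68) after 8 h. Ythdc1 was part of a merged locus, Ythdc2 had 2 rows, and Igf2bp1 failed the status check, so these were not counted. Mettl16 had no row of its own at 1 h and was not counted there.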

How the data were processed

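Polyadenylated RNA of 8 samples (4 groups of 2, by title) was sequenced as paired-end reads, per the labels. Cufflinks 2.2.1, Cuffdiff and mm10 are named in the submitters' processing notes. The aligner, annotation and strandedness are not given in the sources used here. The authors deposited FPKM with an interval, and estimated counts with a variance, in 3 table pairs with 1 column per condition, so replicates were already combined and no count model was fitted. Totals per condition were 31361518 to 32562075 estimated counts, which are scaled values.

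Ratios were formed within a table as log2((FPKM + 0.1)/(FPKM at 0 h + 0.1)), a scale that shrinks the ratio where FPKM is small. The rule for a call stands in the text. The standard error of a count ratio came from the deposited variances, with 0.5 added to both counts. Locus starts were read as 0-based. Genes and transcripts came from GENCODE M21 on GRCm38, the assembly that mm10 names. A representative transcript was taken by APPRIS rank, then by longest coding sequence and length. Promoters came from RefSeq (GRCm38.p6), where 6 of the 8 genes matched. All 8 genes were named, with called genes of a further m6A list, genes that share a locus, and the 3 nearest in pattern to Mettl3 and to each called gene. The genes, lists and rules were chosen with earlier results of these data known. The script was tested on simulated tables. Alternatives covered pseudocount, FPKM minimum, fold, intervals, centring and counts. Python 3.11.15 and pandas 2.3.3 were used.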

Additional observations from a re-analysis of the deposited data

How the results depend on the processing

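No paired analysis was possible because each condition has a single column that pools both replicates, and for the same reason no replicate could be left out. At a 2-fold threshold the called writer genes numbered 1 at 8 h (Wtap) and 0 at 24 h, and the called genes of the wider list 1 and 0; the log2 ratios that lost the call were 0.75 (Cbll1, 8 h), 0.92 (Wtap, 24 h), 0.73 (Cbll1, 24 h), 0.96 and 0.85 (Ythdf1, 8 and 24 h) and 0.97 (Ythdf2, 24 h). Dropping the intervals gave 4 called genes of the 20 tested in the wider list at 24 h. The share of all tested loci called was computed only for the main rule and for the count rule with intervals of 2 SD. Counts of called genes under the other rules therefore cannot be set against such a share. The writer genes called numbered 0, 2 and 2 at 1, 8 and 24 h with a pseudocount of 1, no minimum or at least 5 FPKM, counts with SD or standard errors, centring, the fold alone and the intervals alone. With merged loci counted as members, an alternative chosen after seeing the data, they numbered 0, 3 and 3. Signs near 0 turned for Mettl3 at 8 h (-0.023 by counts, -0.0075 after centring) and for Virma at 1 h (0.0066 by counts). Of the 9 nearest genes, 1 remained when the distance used 8 and 24 h only, so those names depend on the 1 h ratio. The pooling and the merged loci set the main limits: the deposited intervals are the only error, and Rbm15, Rbm15b and, after 1 h, Virma have no value of their own.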
